A study of Danio rerio with 8 samples.

Results

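Homeodomain and Pax transcription factor genes were examined in bulk RNA sequencing of hindbrain neurons sorted from zebrafish larvae with and without *phox2a*. The genes were chosen by symbol alone. They comprise every row of the deposited count table whose name begins with *lhx*, *lmx1*, *pou*, *pax*, *nkx*, *irx*, *dlx*, *evx*, *barhl*, *dbx*, *lbx*, *tlx*, *en*, *gbx*, *otx*, *meis*, *pbx* or *onecut* (with a digit after the letters for the numbered families). The motor neuron genes *lhx3* and *lhx4* and the *pbxip* genes, which encode no homeodomain, were left out. The rule gave 118 of 28802 gene rows.

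These genes write much of the positional code of the hindbrain. Dividing progenitors along the dorsoventral axis hold different combinations of Pax, Dbx, Irx and Nkx proteins. The neurons born from each domain switch to another set, such as Evx in commissural V0 neurons, Lhx2, Lhx9 and Barhl in neurons of the rhombic lip, Lhx1, Lhx5 and Pax2 in many inhibitory interneurons, and Lmx1b and Tlx3 in a class of excitatory neurons. Pbx and Meis proteins are of the TALE class of homeodomains and bind DNA together with Hox proteins. Projection neurons of the tangential nucleus carry vestibular signals from the hindbrain to the ocular motor neurons, whose fate requires *phox2a*.

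All larvae carried the driver *Tg(-6.7Tru.Hcrtr2:GAL4-VP16)*, which acts on the Kaede reporter *Tg(UAS:E1b-Kaede)*, and also *Tg(isl1:GFP)*, and were taken between 72 and 74 hpf. Null larvae were *phox2a*-/- from CRISPR/Cas9 founders with nonsense alleles, and their siblings were *phox2a*+/+ or +/-, not separated. The GAL4 driver is not restricted to the tangential nucleus, and the sort took green neurons without separating Kaede from GFP. A library therefore pools neurons of many larvae and of more than 1 nucleus, and fewer cells of a type cannot be told apart from less RNA per cell. Each of 4 runs, here given the letters A to D by their codes, gave 1 sibling and 1 null library. Runs A to C were compared, 3 libraries against 3. The labels do not say that the larvae of different runs came from separate crosses, so the errors describe the spread between these libraries.

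The 3 sibling libraries held 18657956 to 19968857 gene reads, the null libraries of runs A and B 16992689 and 15156983, and the null library of run C 9579375. The null library of run C stood apart. It held reads on 11087 genes against 16675 to 18409 in the other 5 libraries, and 62.4% of its listed reads were not aligned, against 11.8% to 16.1%. Fold changes and counts of genes are therefore given with and without it where it moved them. The targeted gene *phox2a* was at 468, 493 and 222 CPM (reads of a gene per 1e6 gene reads) in siblings A, B and C and at 66.2, 185 and 106 CPM in nulls A, B and C. The null libraries were all lower, although a nonsense allele need not remove the transcript. In older larvae, the study's in situ hybridization found *phox2a* in ocular motor neurons but not in projection neurons of the tangential nucleus. It also found *phox2a* in the adjacent medial vestibular nucleus, whose neurons may have been harvested too. Which cells gave the *phox2a* reads was not tested. Summed levels of 5 neuronal markers were 13400 to 17500 CPM in siblings and 12800 to 19100 CPM in nulls. Motor neuron markers summed to 930 to 2760 CPM in siblings and 256 to 1240 CPM in nulls, and all 5 that were tested were lower in nulls. Skin markers summed to 83.4 to 3320 and 0.726 to 2270 CPM, hair cell and otic markers to 0.401 to 4.61 and 6.47 to 22.1 CPM, and cartilage markers to 0 to 43.9 and 2.44 to 59.3 CPM. The part of these other cells in the values below was not tested.

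Most of the homeodomain and Pax genes were detected in sibling neurons. The mean over the 3 sibling libraries reached 1 CPM for 79 of the 118 genes, 10 CPM for 60 and 100 CPM for 24. Reads grow with transcript length, and no lengths were used, so levels are compared between libraries and not between genes. The spans of 30 members overlap a protein-coding gene in the RefSeq annotation of GRCz12tu, and the library kit does not mark strand, so reads of such neighbors cannot be told apart. Members among the 30 are *meis1b*, *pbx3b*, *evx1*, *irx1a*, *irx5b*, *onecut3b*, *pou3f2a*, *pou3f2b*, *lmx1bb*, *nkx2.2b*, *dlx5a* and *dlx6a*. The spans of 60 members overlap another annotated gene of any kind. For *lbx1a*, *lhx1a*, *pax2b*, *pou4f1* and *nkx1.2lb* these are noncoding RNAs only. No sibling library held a read of 26 genes, and 16 of these had none in any of the 6 libraries. A count of 0 allows up to 0.15 to 0.313 CPM, depending on the library, which covers counting error only. In total, the 118 genes took 1.16%, 1.65% and 1.33% of gene reads in siblings A, B and C and 1.28%, 1.41% and 1.34% in nulls A, B and C. The share in the nulls lay inside the range of the siblings.

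**Figure D1:**
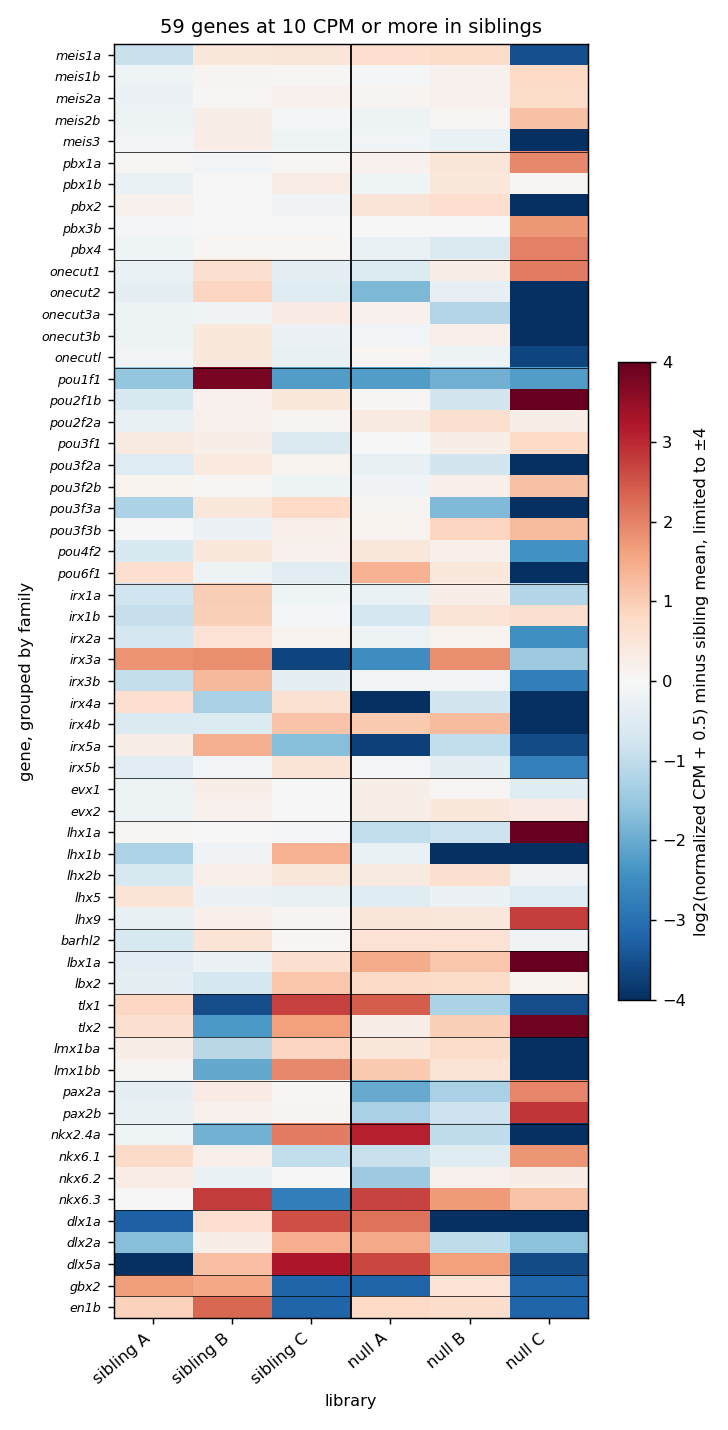
Heat map of 59 of the 60 genes with a mean of at least 10 CPM in siblings. Each row is a gene and each column 1 library. Colors show log2(normalized CPM + 0.5) minus the mean of the 3 siblings, limited to 4 either way. The column of null C holds most of the deep colors in both directions, while the rows of *pbx1a*, *pbx3b*, *meis1b*, *meis2a* and *evx2* are pale across the 3 siblings.

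Spread between sibling libraries differed from gene to gene. Among members at 1 CPM or more, the median coefficient of variation (SD over mean) of the 3 siblings was 0.559, against 0.428 for the 15451 genes at that level. Among those at 100 CPM or more it was 0.258, against 0.217 for 2201 genes. The steadiest of the 24 genes at 100 CPM or more were TALE cofactors. The coefficient was 0.0329 for *pbx1a*, 0.0490 for *pbx3b*, 0.110 for *pbx4* and 0.112 for *meis1b*. It was highest for *irx1a* (0.689) and reached 0.546 for *nkx6.1*.

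The TALE cofactors of Hox proteins had reads in every library. All 11 Meis and Pbx genes passed the filter on low counts. The 11 summed to 6650, 8490 and 7210 CPM in siblings A, B and C, and to 6750, 7590 and 6900 CPM in nulls A, B and C. These ranges overlap. *meis1b* gave 46710, 56118 and 48292 reads in siblings and 41053, 42527 and 19362 in nulls A, B and C, or 2250 ± 208 and 2870 ± 913 normalized CPM (SD, n = 3). Normalized CPM are CPM divided by edgeR's TMM factors, which correct for differences in library composition. The factor was 0.518 for null C and 1.1 to 1.22 for the other libraries, so it raised the values of null C relative to theirs. The log2 fold change of *meis1b*, null over sibling, was 0.35 (SE 0.42), and 0.06 without null C. *meis2b* was at 1640, 2250 and 1840 normalized CPM in siblings and 1630, 2000 and 4260 in nulls A, B and C. On this scale its nulls of runs A and B lay among the siblings or just under them, and null C lay above. In CPM without TMM factors, null C was at 2200, within the sibling range of 1910 to 2740. The estimate for *meis2b* was 0.46 (SE 0.49) with null C and -0.09 (SE 0.26) without it.

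Pbx genes encode the partners that Meis and Hox proteins bind. *pbx3b* was at 663, 685 and 686 normalized CPM in siblings A, B and C and at 676 in both nulls A and B, but at 2250 in null C. Its log2 fold change was 0.83 (SE 0.58) over the 6 libraries and -0.02 (SE 0.22) without null C. *pbx1a* was at 217, 194 and 217 normalized CPM in siblings and at 236, 290 and 788 in nulls A, B and C. All 3 null libraries were above all siblings, by a log2 fold change of 1.07 (SE 0.58, unadjusted p = 0.10 and adjusted p = 1.0 in edgeR), or 0.32 (SE 0.24) without null C. *pbx4*, the gene also known as *lazarus* and needed for hindbrain segment identity in zebrafish, turned from 0.89 (SE 0.74) to -0.44 (SE 0.25) when null C was left out. Over all 11 cofactors, 10 had a higher estimate in nulls and 1 a lower one, with a median of 0.36 against -0.15 for all genes tested. Without null C the count was 7 higher and 4 lower, with a median of 0.13 against -0.03. *meis3*, which is required in zebrafish for hindbrain patterning, was the lower one. It had 41 reads in null C and 4434 to 8915 reads in the other 5 libraries, and its log2 fold change of -0.77 (SE 1.00) became -0.22 (SE 0.25) without that library.

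Evx genes mark V0 commissural neurons, which arise from progenitors that hold Dbx1. The study took *evx2* as its reference gene for projection neurons and reported no significant change in it. Its in situ hybridization also found *evx2* in the medial vestibular nucleus. In its single-cell data, *evx2* was detected in nearly as large a share of all labeled neurons as of projection neurons. The level of *evx2* here is thus not that of projection neurons alone. *evx2* gave 6794, 8835 and 7069 reads in siblings A, B and C and 7480, 7446 and 2091 in nulls A, B and C. In normalized CPM, siblings were at 293, 378 and 341 and nulls at 396, 445 and 422. The 3 nulls lay above the 3 siblings, but the difference of 0.32 in log2 (SE 0.43) was smaller than its error, with an unadjusted p of 0.48 in edgeR. In CPM without TMM factors the *evx2* libraries overlapped and the estimate was -0.04. Its paralog *evx1* was detected in all 6 libraries, with 354 to 557 reads in 5 and 72 in null C, and showed a log2 fold change of -0.04 (SE 0.82), or 0.12 (SE 0.49) without null C. The annotated span of *evx1* overlaps genes of the hoxa cluster, so its count is uncertain. The progenitor genes of this domain had almost no reads. *dbx1a* had no read in any library, and *dbx1b* had 1 read, in null A. *pax7a*, a dorsal progenitor gene, had 15, 1 and 0 reads in siblings and 89, 0 and 0 in nulls A, B and C, and *pax7b* had 3 reads, all in null A.

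The genes whose pattern over the 6 libraries was most like that of *evx2* came from several classes. By Pearson's correlation of log2(normalized CPM + 0.5), they were *pou2f2a* (0.94), *barhl2* (0.70), *meis2a* (0.68), *lhx2b* (0.66) and *irx1b* (0.64). These are descriptions over 6 points that share depth and library, and they carry no test. *pou2f2a*, a POU gene whose mammalian homolog is best known from B cells and also marks spinal interneurons, was at 150, 206 and 199 normalized CPM in siblings and 237, 287 and 222 in nulls A, B and C. It too was higher in every null library, with a log2 fold change of 0.43 (SE 0.47), or 0.49 (SE 0.26) without null C.

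Neurons born at the rhombic lip express Barhl, Lhx2 and Lhx9 proteins. *lhx9* gave 302, 445 and 380 CPM in siblings A, B and C and 495, 487 and 1120 CPM in nulls A, B and C. After TMM factors, siblings were at 322 ± 55.6 and nulls at 1020 ± 997 (SD, n = 3). All null libraries were above all siblings on both scales. Its log2 fold change was 1.66 (SE 0.71, unadjusted p = 0.047, adjusted p = 1.0 in edgeR) and null C carried 71.0% of the summed level of the nulls. Without null C it was 0.45 (SE 0.25), with an unadjusted p of 0.12 in edgeR. *lhx2b*, which acts beside Lhx9 in these neurons, ranged from 146 to 311 normalized CPM in siblings and from 210 to 360 in nulls. *barhl2*, which marks lateral hindbrain neurons, ranged from 74.7 to 168 in siblings and from 103 to 172 in nulls. Both overlapped between genotypes, and their estimates were 0.26 (SE 0.51) for *lhx2b* and 0.31 (SE 0.56) for *barhl2*, or 0.43 (SE 0.35) and 0.50 (SE 0.36) without null C. The study took detection of *barhl2* as a sign that its libraries included neurons outside the tangential nucleus. *barhl1a* and *barhl1b* were patchy, with 0 to 248 reads and none in null C. *lhx2a* had no read in any library.

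*pou4f1* and *pou4f2* encode Brn3 factors of sensory and sensory relay neurons. In the study's in situ hybridization, *pou4f1* was absent from tangential projection neurons and present in the medial vestibular nucleus. The part of that nucleus in the values below was not tested. *pou4f1* gave 174, 211 and 147 reads in siblings A, B and C and 52, 47 and 5 in nulls A, B and C. Siblings were at 7.87 ± 1.03 and nulls at 2.19 ± 1.02 normalized CPM (SD, n = 3), and the libraries did not overlap. The log2 fold change of *pou4f1* was -1.83 (SE 1.30, unadjusted p = 0.20 in edgeR), and -1.51 (SE 1.05) without null C. Within runs A, B and C the log2 ratio was -1.41, -1.65 and -2.68. Here and below, ratios within a run are of normalized CPM after a prior count of 2 reads, scaled to library size, was added. This shrinks them at low counts. *pou4f2* overlapped between genotypes, at 11.1 to 23.6 normalized CPM in siblings and 2.82 to 24.1 in nulls.

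**Figure D2:**
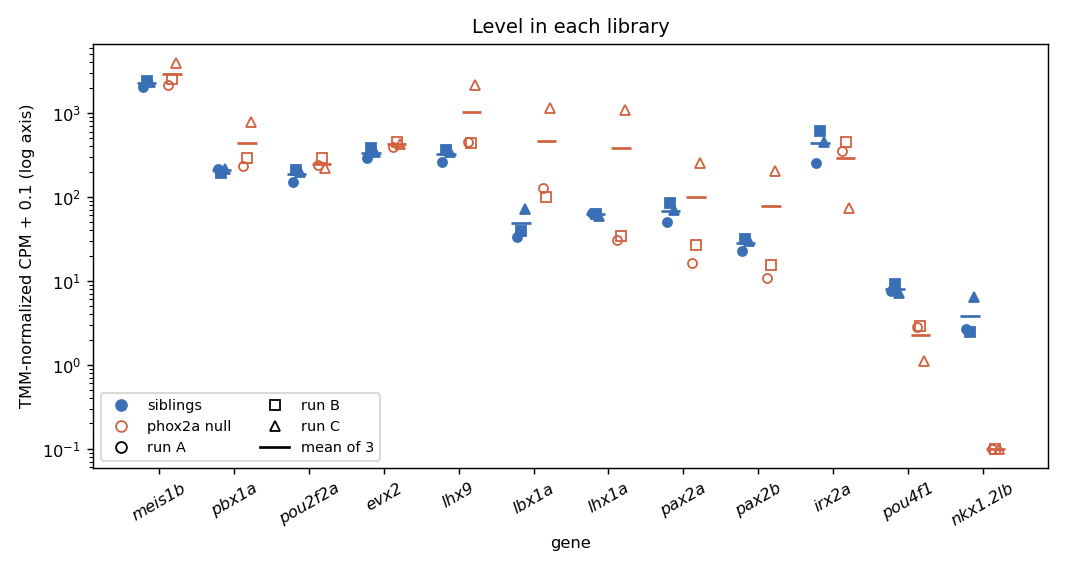
Level of 12 genes in each of the 6 libraries, as TMM-normalized CPM + 0.1 on a log axis. Filled blue points are siblings, open orange points *phox2a* nulls, shapes mark the run and bars the mean of 3. Null C (open triangles) lies far above the other nulls for *lhx1a*, *lbx1a*, *pax2a* and *pax2b* and below them for *irx2a*, and *nkx1.2lb* is at 0 in all nulls.

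Among the genes listed for Lhx1, Lhx5 and Pax2 inhibitory interneurons, *lhx1a*, *pax2a* and *pax2b* split the null libraries. The other listed genes, *lhx5* among them, were not both low in nulls A and B and high in null C. *lhx1a* was even in siblings, with 1480, 1448 and 1235 reads and 63.8, 62.0 and 59.5 normalized CPM in A, B and C. In nulls A and B it gave 584 and 565 reads and 30.9 and 33.8 normalized CPM, but in null C 5420 reads and 1090 normalized CPM. Nulls A and B lay below every sibling and null C far above, and null C carried 94.4% of the summed null level. The log2 fold change was therefore 2.64 (SE 1.31) over the 6 libraries and -0.95 (SE 0.32) without null C, with an unadjusted p of 0.022 and an adjusted p of 1.0 in edgeR.

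Pax2 proteins act in GABAergic and glycinergic interneurons and, earlier, at the boundary of midbrain and hindbrain. Both zebrafish copies had the same arrangement as *lhx1a*. *pax2a* gave 1161, 1951 and 1425 reads in siblings A, B and C and 302, 447 and 1263 in nulls A, B and C. Its normalized CPM were 50.0, 83.6 and 68.7 in siblings and 16, 26.7 and 255 in nulls. The log2 ratio of *pax2a* was -1.64 in run A, -1.64 in run B and 1.89 in run C. Its fold change was 0.56 (SE 1.02) over the 6 libraries and -1.67 (SE 0.43, unadjusted p = 0.0059, adjusted p = 1.0 in edgeR) without null C. *pax2b* was at 22.5, 31 and 30 normalized CPM in siblings and 10.8, 15.4 and 205 in nulls A, B and C. Its estimate was 1.47 (SE 1.13) with null C and -1.10 (SE 0.52, unadjusted p = 0.072 in edgeR) without it. For all 3 genes the 2 better aligned null libraries were low and the third was high in CPM of gene reads as well.

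*lhx5*, which is expressed with *lhx1a* in the same interneuron classes, was not high in null C. It was at 69.1, 39.8 and 38.1 normalized CPM in siblings and 33.5, 40.1 and 32.7 in nulls A, B and C, with a log2 fold change of -0.47 (SE 0.66), or -0.42 (SE 0.42) without null C. *lhx1b* gave 176, 391 and 1017 reads in siblings and 288, 4 and 0 in nulls A, B and C, so that null A lay within the range of the siblings. *pax5* and *pax8*, relatives of Pax2 in the same interneurons, stayed at or below 111 reads in every library. *en1b*, of the Engrailed genes that mark V1 interneurons and the midbrain boundary, was patchy with 0 to 513 reads, and *en1a* had none.

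Lbx1 separates dorsal interneurons of class B from other dorsal neurons. *lbx1a* gave 781, 911 and 1488 reads in siblings A, B and C and 2395, 1650 and 5680 in nulls A, B and C. Siblings were at 33.6, 39.0 and 71.7 normalized CPM and nulls at 127, 98.6 and 1150. Each null library was above each sibling, and the log2 ratio was 1.91, 1.33 and 4.00 within runs A, B and C. Over the 6 libraries its log2 fold change was 3.25 (SE 1.03, unadjusted p = 0.013, adjusted p = 1.0 in edgeR), with 83.6% of the summed null level in null C. Without null C it was 1.22 (SE 0.40, unadjusted p = 0.018, adjusted p = 1.0 in edgeR). Leaving out any 1 of the 6 libraries kept the estimate between 1.22 and 3.71. *lbx2* overlapped between genotypes, at 31.8 to 114 normalized CPM in siblings and 58.3 to 90.0 in nulls, and *lbx1b* reached at most 62 reads. In the GRCz12tu annotation *tlx1* is the neighbor of *lbx1a*. The reads of *tlx1* were 227, 0 and 785 in siblings and 578, 32 and 0 in nulls A, B and C. Null C held few reads of many genes, so the 0 there shows little. The part of neighboring genes in the reads of *lbx1a* was not tested.

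Over the 12 genes listed for these inhibitory and dorsal classes, 11 were tested, with 6 higher and 5 lower in nulls and a median log2 fold change of 0.35, against -0.15 for all genes. Without null C, 4 were higher and 7 lower and the median was -0.49, against -0.03. At an unadjusted p under 0.05 in edgeR without null C, *lbx1a* was higher in nulls and *lhx1a* and *pax2a* lower, each with an adjusted p of 1.0.

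Lmx1b and Tlx3 specify excitatory neurons of the dorsal hindbrain, and Tlx genes oppose the inhibitory program. The Lmx1b and Tlx genes varied widely between siblings. *lmx1bb* gave 1022, 221 and 3188 reads in siblings A, B and C and 1593, 994 and 0 in nulls A, B and C. *lmx1ba* gave 694, 260 and 934 reads in siblings and 624, 685 and 0 in nulls. Nulls A and B lay within the range of the siblings for both genes, and null C had no read of either. Their log2 fold changes were -0.52 (SE 1.65) and -0.21 (SE 1.55), or 0.05 (SE 0.94) and 0.36 (SE 0.61) without null C. *tlx2* instead gave 1050, 127 and 1854 reads in siblings and 653, 928 and 2125 in nulls A, B and C, and *tlx3b* gave 456, 0 and 0 in siblings and 862, 77 and 0 in nulls. Sibling B was the lowest sibling library for *lmx1ba*, *lmx1bb*, *tlx1* and *tlx2*. The list for this class also holds *lbx1a*, *lbx1b* and *pou4f1*, which are counted in other lists as well. Of its 8 genes tested, 3 were higher and 5 lower in nulls, with a median of -0.35, against -0.15 for all genes. Without null C, 7 of 9 were higher and 2 lower, with a median of 0.06 against -0.03. Among the higher ones, *tlx1*, *lmx1bb*, *lbx1b* and *lmx1al* had estimates of only 0.02 to 0.07, with SEs of 0.94 to 2.72. *lmx1al* did not pass the filter over the 6 libraries.

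POU and Onecut factors are expressed as neurons leave the cell cycle and mature. Of 14 listed genes in the table, 13 were tested, with 6 higher and 7 lower in nulls and a median of -0.21, or -0.05 without null C. For all genes tested the medians were -0.15 and -0.03. *onecut1* was at 475, 902 and 446 normalized CPM in siblings and 393, 700 and 2400 in nulls A, B and C. Nulls A and B lay close to the siblings, and the estimate moved from 0.94 (SE 0.72) to -0.17 (SE 0.41) without null C. *onecut3b*, in contrast, gave 4253, 6642 and 3763 reads in siblings and 3688, 4055 and 9 in nulls A, B and C. *onecutl* gave 4712, 6839 and 3710 reads in siblings and 4425, 3189 and 83 in nulls. Within 1 family, null C was thus high for *onecut1* and near 0 for *onecut3b*.

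Class III POU genes are shared by many neurons and their progenitors. *pou3f1*, *pou3f2b* and *pou3f3b* had 1102, 1874 and 603 reads in null C, and their estimates were 0.32 (SE 0.54), 0.51 (SE 0.54) and 0.82 (SE 0.60). Without null C the estimates were 0.04 (SE 0.34), 0.02 (SE 0.26) and 0.53 (SE 0.35). *pou3f2a*, the second copy of *pou3f2*, had 1293, 2406 and 1799 reads in siblings and 1218, 797 and 22 in nulls A, B and C. *pou3f3a* had 145 or more reads in 5 libraries and none in null C. In both pairs of copies, null C held reads of 1 copy and few or none of the other. *pou2f1b*, the zebrafish gene for the broadly expressed factor Oct1, was at 56.8, 100 and 119 normalized CPM in siblings and 91.6, 52.2 and 1880 in nulls A, B and C, and its estimate of 2.87 (SE 1.28) became -0.37 (SE 0.42) without null C.

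Iroquois genes subdivide the neural plate, and several are expressed across the hindbrain. The 11 Irx genes summed to 937, 2490 and 1460 CPM in siblings A, B and C and to 1190, 1540 and 196 CPM in nulls A, B and C. Sibling B was high and null C low, and nulls A and B lay within the range of the siblings. *irx1a* gave 7412, 25809 and 10167 reads in siblings and 8778, 11107 and 1220 in nulls A, B and C. *irx2a* gave 5858, 14317 and 9296 reads in siblings and 6674, 7599 and 368 in nulls. *irx5b* gave 3216, 4075 and 5652 reads in siblings and 3324, 2413 and 137 in nulls. The 3 had estimates of -0.48 (SE 0.62), -0.58 (SE 0.71) and -0.75 (SE 0.73), each near or below its SE, and -0.19, -0.13 and -0.30 without null C. Of the 9 Irx genes tested, 7 were lower in nulls, and 8 of 9 without null C. Their medians were -0.75 and -0.30, against -0.15 and -0.03 for all genes tested.

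Iroquois genes lie in clusters, and in the GRCz12tu annotation *irx4a*, *irx2a* and *irx1a* are near neighbors, as are *irx1b* and *irx4b*, and *irx6a*, *irx5a* and *irx3a*. *irx5a* and *irx4a*, from 2 of these clusters, gave the most negative Irx estimates. *irx5a* was at 12.5, 28.5 and 2.84 normalized CPM in siblings and 0.317, 4.90 and 0.403 in nulls A, B and C. It was lower in the null of each run, by log2 ratios (prior count of 2) of -4.88, -2.51 and -2.52, although null B lay above sibling C. Its log2 fold change of -2.94 had an SE of 1.62 (unadjusted p = 0.11 in edgeR), and was -2.50 (SE 1.49) without null C. Its neighbor *irx3a* gave 498, 524 and 0 reads in siblings and 12, 378 and 9 in nulls A, B and C, and *irx6a* 181, 0 and 0 in siblings and 6, 1 and 0 in nulls.

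Genes of dividing dorsoventral progenitors were in part missing. Of 17 listed genes in the table, 8 reached a mean of 1 CPM in siblings and 7 had no sibling read. *pax3a*, *pax3b* and *pax7b* (dorsal progenitors), *dbx1a* and *dbx1b* (intermediate) and *nkx2.2b* and *nkx2.9* (ventral) were those 7. *pax6a* and *pax6b*, of a broad middle band, stayed at or below 37 reads. In contrast *nkx6.1* and *nkx6.2*, which are kept in ventral neurons and motor neurons as well as progenitors, had 691 or more reads in every library. *nkx6.1* gave 5967, 3990 and 1575 reads in siblings A, B and C and 1533, 1792 and 2544 in nulls A, B and C. Its normalized level was 168 ± 90.6 in siblings and 234 ± 242 in nulls (SD, n = 3), with 513 in null C against 81.1 and 107 in nulls A and B. Its estimate was 0.48 (SE 0.83), and -0.85 (SE 0.50) without null C. Cell cycle markers summed to 23.4 to 110 CPM in siblings and 8.46 to 92.0 in nulls. The level of *nkx6.1* in siblings had the order of the motor neuron markers, which summed to 2760, 1720 and 930 CPM in siblings A, B and C. In nulls A, B and C the markers summed to 1090, 1240 and 256 CPM, and *nkx6.1* was at 90.2, 118 and 266 CPM. Null C was thus lowest for the markers and the highest null for *nkx6.1*. The order in siblings rests on 3 libraries, and the part of motor neurons in it was not tested.

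Of the 75 genes tested, *nkx1.2lb* was the 1 with no read in any null library. Siblings A, B and C held 59, 55 and 131 reads of it, and no null library held any. Sibling D, which was in no comparison, held none either, among 15865368 gene reads on 6211 genes. At 3 reads per null library *nkx1.2lb* was at least 11.9-fold lower than in siblings A to C. This bound covers counting error only, and null C held few reads of many genes. The filter kept *nkx1.2lb* through the sibling libraries alone, so this bound and the tests below are given as description and nothing is read from them. It had an unadjusted p of 0.0096 and an adjusted p of 1.0 in edgeR and was the 1 member called by DESeq2 (adjusted p = 0.0074). The edgeR adjusted p ranged from 0.57 to 1.0 over 10 alternatives. Its paralog *nkx1.2la* had 5, 0 and 3 reads in siblings and none in nulls.

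A further set belongs to forebrain or to other tissues. Dlx genes act in forebrain GABAergic neurons and in the pharyngeal arches, and *nkx2.1*, *nkx2.4a* and *nkx2.4b* in the hypothalamus and thyroid. These genes, grouped after their values were seen, summed to 32.7, 113 and 406 CPM in siblings A, B and C and to 460, 81.4 and 5.22 CPM in nulls A, B and C. Sibling C and null A were high for most of them. *dlx2a* gave 210, 853 and 1768 reads in siblings and 1664, 251 and 47 in nulls A, B and C. *dlx5a* gave 0, 561 and 2055 reads in siblings and 1284, 549 and 2 in nulls. *nkx2.4a* gave 308, 86 and 1326 reads in siblings and 2489, 121 and 0 in nulls. *dlx1a* and *dlx2a* are neighbors in the GRCz12tu annotation, as are *dlx5a* and *dlx6a*. The spans of *dlx5a* and *dlx6a* also overlap the protein-coding gene *trioa* there. The genotypes overlapped for all of these genes.

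**Figure D3:**
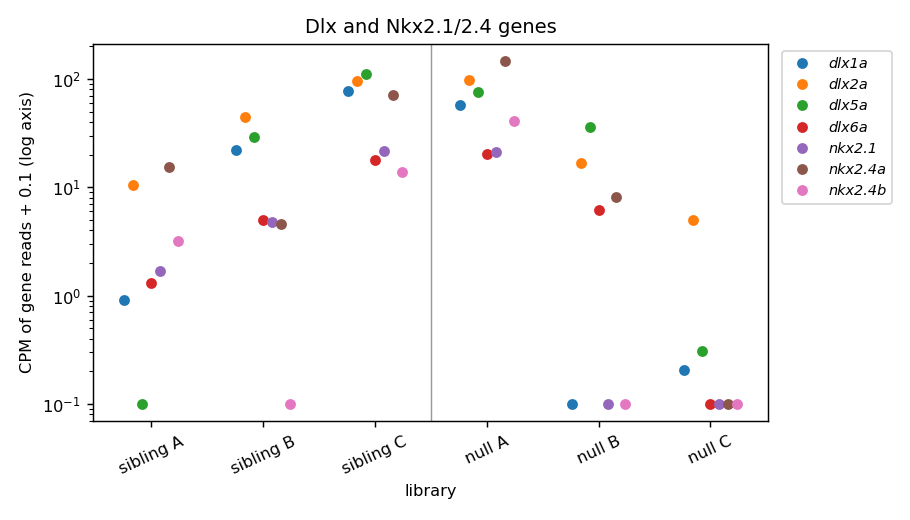
CPM of gene reads + 0.1, on a log axis, of 4 Dlx and 3 Nkx2 genes in each library, with points spread sideways by gene. Points at the lowest level are 0 reads. Most genes are high in sibling C and null A and at or near 0 in null C, so the spread within a genotype exceeds the difference between genotypes.

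Several genes had reads in 1 library only or almost only. *nkx2.2b* gave 1252 reads in null A and none in the other 5. *pou1f1*, the pituitary POU gene, gave 762 reads in sibling B and 7, 0, 0, 2 and 0 in sibling A, sibling C and nulls A, B and C. *pou5f3*, known from the early embryo, gave 15 reads in sibling B and 211 in null B. *otx1* and *otx2a*, of forebrain and midbrain, gave 67 and 40 reads in sibling A and at most 1 elsewhere, while *otx2b*, *en2a* and *lhx6* had none. Of 13 listed genes of heart, jaw, pharynx, skin, placode, pancreas or early embryo, 2 were tested. *pou4f3*, a hair cell gene, had 10 reads in null A and none elsewhere.

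Across the 118 genes, no difference between genotypes was called. Calls were made in edgeR's quasi-likelihood test at an adjusted p below 0.05 where the log2 fold change also exceeded 2 in size, and 0 of 75 members tested met it, as did 0% of 14824 genes. An unadjusted p under 0.05 was found for 3 members (4% of 75), against 3.22% of all genes. These were *lbx1a* and *lhx9*, higher in nulls (2.46% of all genes were higher at this level), and *nkx1.2lb*, lower (0.762%). Estimates were higher in nulls for 39 members and lower for 36, with a median of 0.04 against -0.15 for all genes. Without null C the count was 43 and 38 of 81, with a median of 0.02 against -0.03. With no scaling beyond gene reads it was 26 higher and 49 lower, with a median of -0.31 against -0.36. The null libraries lay wholly above the siblings for *evx2*, *lbx1a*, *lhx9*, *pbx1a* and *pou2f2a* (6.67% of 75, against 3.1% of all genes) and wholly below for *nkx1.2lb* and *pou4f1* (2.67%, against 7.53%). With 3 libraries against 3, an exact two-sided permutation test cannot go below 0.1. In CPM without TMM factors *evx2* and *pou2f2a* overlapped and the other 5 did not.

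Other fits changed which members stood out. DESeq2 called 1 of 71 members (1.41%), *nkx1.2lb*, and 0.842% of 15194 genes. It gave no adjusted p for *lbx1a*, *lhx1a*, *pax2b* or *pou2f1b*, which are therefore not among the 71. With the run as a block, edgeR gave an unadjusted p under 0.05 for *lbx1a* (0.016) and *nkx1.2lb* (0.049), 2.67% of members against 0.681% of all genes. Without null C, 4 of 81 members (4.94%) were under 0.05, against 4.05% of all genes, namely *lbx1a*, *nkx1.2lb*, *lhx1a* and *pax2a*. Nothing is read from the place of *nkx1.2lb* in these counts or in those over the 6 libraries, since the filter kept it through the sibling libraries alone.

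**Figure D4:**
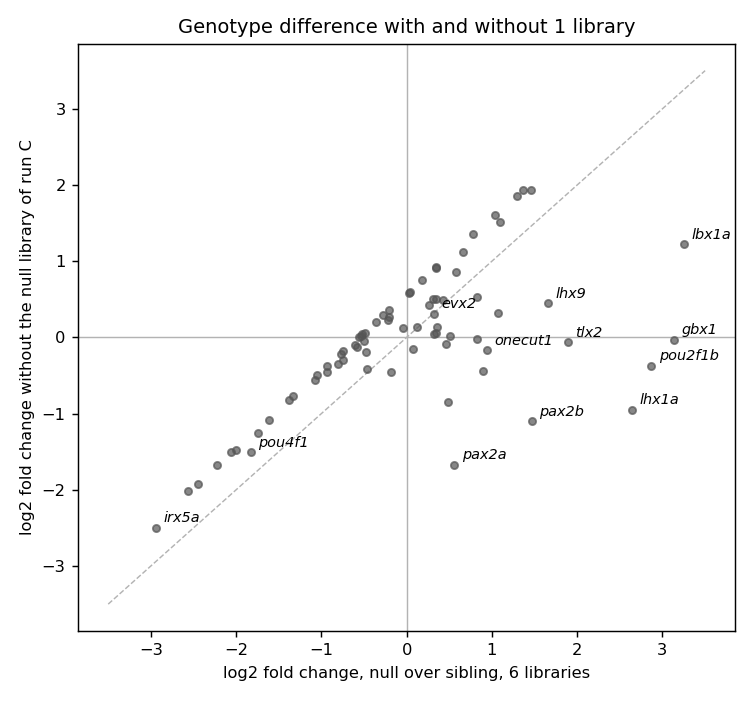
Log2 fold change, null over sibling, of 74 tested genes over the 6 libraries (horizontal) and without the null library of run C (vertical). The dashed line marks equal values, and *nkx1.2lb*, with no read in nulls, is left out. The estimates of 12 genes turned from higher to lower, among them *lhx1a*, *pax2a* and *pax2b*, and those of 9 from lower to higher.

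Null C also held few reads of many genes. Of 53 members with at least 10 reads in each of the other 5 libraries, 14 (26.4%) had fewer than 10 in null C, against 3986 of 11019 genes (36.2%). The share among homeodomain and Pax genes was below the share among all genes, and the difference was not tested. *onecut3b*, with 3688 or more reads in each other library, was among the 14, while *onecut1* of the same family had 11926 reads there.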

How the data were processed

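The authors deposited raw counts, whole reads per gene in 8 libraries, aligned to GRCz11 with Kaede and GFP added. The aligner and counter are not given in the sources used here. Their normalized table was not used. Rows naming no gene (5, holding 41.2% to 98.1% of listed reads) stayed out of totals and tests. Gene reads ranged from 735217 to 19968857 per library, and all intervals cover counting error only.

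Members and gene lists were chosen with earlier results of these data known. Run D was left out because 1 repeat was excluded for poor quality in the study's methods and its null library had the fewest gene reads. It was kept as an alternative. Genotypes were compared with edgeR 4.0.16 (filterByExpr, TMM, glmQLFit, glmQLFTest) in R 4.3.3 over all genes, with Benjamini-Hochberg adjustment. Alternatives were DESeq2 1.42.0, RLE factors, no scaling, no filter, at least 10 reads in every library, the run as a block, all 4 runs, and leaving out each library. The series' design states that each repeat gave both genotypes. Deviations from genotype means correlated at 0.027, 0.082 and 0.05 within runs A, B and C. Named genes were the 20 highest in siblings, those with an unadjusted p under 0.05 or separate groups, genes the study names, and members of each list by level or absence in siblings. Others were chosen after their values were seen. In the text and figures, 1 member is not reported by name here. RefSeq names matched 117 of 118 members. Scripts were tested on simulated data.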

Additional observations from a re-analysis of the deposited data

Results flagged for a closer look

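The null library of run D, which was in no comparison, held 735217 gene reads on 2214 genes, with 95.4% of its listed reads not aligned. In it, 4 homeodomain or Pax genes were above both the sibling library of the same run and the 4.08 CPM that a count of 0 allows. *irx2a* took 15518 reads, or 21100 CPM, against 620 CPM. *pbx1a* was at 19 CPM (14 reads) against 8.45, *pax2a* at 10.9 CPM (8 reads) against 0.063, and *lhx8a* at 6.8 CPM (5 reads) against 0. With no further library of this kind these values have no error beyond counting.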

How the results depend on the processing

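Alternatives gave the following where they moved a result. Members with an unadjusted p under 0.05 (3) became 7 with no filter, 5 in DESeq2 and 2 to 9 when 1 library was left out. The count over all genes moved as well. It was 477 of 14824 in the main fit, 1228 of 23680 with no filter and 1219 of 23680 in DESeq2. With 1 library left out it ran from 281 of 15899 to 1404 of 16170. Members whose genotypes did not overlap (7) became 3 with 10 reads required in every library, 2 with all 4 runs and 11 to 17 with 1 library left out. Groups with 1 library fewer separate more easily for any gene. The shares over all genes were not counted under these settings, so nothing about the members is read from these counts. DESeq2 called 1 member and edgeR none. With no scaling beyond gene reads, the median of all genes shifted from -0.15 to -0.36, and log2 fold changes turned for *evx2* (-0.04), *lhx2b* (-0.01), *meis1b* (-0.12), *meis2a* (-0.08), *meis2b* (-0.10), *nkx6.1* (-0.32), *pax2a* (-0.40), *pou3f1* (-0.15) and *pou3f2b* (-0.03). With all 4 runs they turned for *evx1* (0.08), *irx2a* (7.77), *lhx2b* (-0.23), *lmx1ba* (0.21) and *pou3f2b* (-0.45). RLE factors and DESeq2 turned *evx1* (0.06). The replicate block turned *lmx1bb* (0.08), *nkx6.1* (-0.01) and *pax2a* (-0.59), changed no call, and left 101 of all genes under 0.05 against 477. Of those genes, 364 were higher and 113 lower in nulls, against 122 and 111 with no scaling, 43 and 58 with the block and 288 and 387 without null C.

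With 1 library left out, estimates that turned ranged from -0.25 to 0.12 for *evx1*, -0.86 to 0.18 for *irx1a*, -0.95 to 3.16 for *lhx1a*, -0.03 to 0.44 for *lhx2b*, -0.79 to 0.36 for *lmx1ba*, -1.21 to 0.83 for *lmx1bb*, -0.09 to 0.65 for *meis2b*, -0.85 to 0.84 for *nkx6.1*, -0.17 to 1.33 for *onecut1*, -1.14 to 0 for *onecut3b*, -1.67 to 0.98 for *pax2a*, -1.10 to 1.93 for *pax2b*, -0.02 to 1.09 for *pbx3b*, -0.44 to 1.28 for *pbx4* and -0.06 to 2.7 for *tlx2*. Of 33 genes followed, 12 turned under no alternative. The causes were not tested. The depth of null C limits what can be read from genes at 0 there.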
